A study of Mus musculus with 10 samples.

Results

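The genes described here are those of DNA replication and DNA repair: 87 of the 21631 protein-coding genes on autosomes and X in the RefSeq table used. They were chosen by symbol, so symbols and not measured values define the set. The rule took numbered Mcm genes, Orc1 to Orc6, Rfc1 to Rfc5, Gins1 to Gins4, numbered Rad genes, Xrcc1 to Xrcc6 and numbered Msh genes. It also took Brca1, Brca2, Pcna and Fanc genes with the letters a to m. Of the DNA polymerase genes it took those with a, d, e, g, h, i, k, l, m, n or q after Pol, so some are left out. For each gene the question was whether a library's list of ATAC-seq peaks held a peak within 1000 bp of either end of the gene, called a gene-end peak below. In ATAC-seq a transposase cuts and tags open chromatin, and a peak is a stretch with more tags than its background. Of the 87 genes, 74 had a gene-end peak in at least 1 of 10 libraries. The other 13 are accounted for below.

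The libraries came from frozen liver tumours of FVB mice, collected at the time of death. All mice carried LAP-tTA, a tetracycline-controlled activator expressed from a liver promoter, and TRE-MYC, a MYC transgene that it switches on when doxycycline is withdrawn. The WT group (n = 4, about 55 days old) had the genotype LAP-tta, Arid1a flfl and TRE-MYC, so its Arid1a alleles were floxed but no Cre was present. The Het group (n = 3, about 70 days old) was Arid1a fl/+ with Alb-cre, a recombinase driven by the albumin promoter, on the same LAP-tta and TRE-MYC background. The Homo group (n = 3, about 100 days old) was Arid1a fl/fl with Alb-cre on that background. Arid1a codes for a subunit of SWI/SNF, a complex that moves nucleosomes. A peak at the ends of Arid1a does not show whether the floxed part was deleted, so the genotype labels were not checked from the lists. Age and the presence of Cre change with the Arid1a genotype, and the 3 cannot be told apart. Alb-cre acts in hepatocytes and cells derived from them, so other cells of a tumour would keep their floxed alleles. The replicate numbers do not say that each library came from a separate mouse. A p-value here thus takes the library, not the mouse, as the unit, and differences among libraries may be technical.

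Replication starts at origins marked by the origin recognition complex, which with helper proteins loads the ring of Mcm2 to Mcm7. The GINS complex joins that ring to form the moving helicase, and the clamp PCNA, placed by the RFC clamp loader, holds polymerases delta and epsilon on the new strand. The Fanconi anemia proteins, BRCA1 and BRCA2 repair crosslinks and broken forks, the MutS proteins recognise mismatches, and XRCC5 and XRCC6 (Ku) join ends. Many of these genes are switched on in dividing cells by E2F factors, and quiescent adult hepatocytes express them at low levels.

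Promoters are shown first for 6 genes on which the results below turn. Rad18, Mcm3, Fanca and Polq had a peak in every WT library and in no Het library, and Rad17 and Pold3 had a peak in all 10 libraries. Each run is the 250 bases before the RefSeq start site (build GRCm38.p6, the RefSeq name of mm10), read 5′ to 3′ in the direction of the gene. The runs are Rad18 chr6:112696649-112696898, Mcm3 chr1:20820313-20820562, Fanca chr8:123318577-123318826, Rad17 chr13:100651062-100651311 and Pold3 chr7:100121503-100121752 on the minus strand, and Polq chr16:37011536-37011785 on the plus strand. Capitals mark, on either strand, CCAAT (the NF-Y letters; ATTGG when read from the other strand), CCGGAAG (the ETS letters; CTTCCGG from the other strand) and TTTGAA (the CHR letters; TTCAAA from the other strand).
Rad18: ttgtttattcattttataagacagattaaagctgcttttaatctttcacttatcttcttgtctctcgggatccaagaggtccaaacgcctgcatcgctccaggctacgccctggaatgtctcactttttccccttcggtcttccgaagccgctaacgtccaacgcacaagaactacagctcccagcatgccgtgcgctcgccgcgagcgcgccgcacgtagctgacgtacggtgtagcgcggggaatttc
Mcm3: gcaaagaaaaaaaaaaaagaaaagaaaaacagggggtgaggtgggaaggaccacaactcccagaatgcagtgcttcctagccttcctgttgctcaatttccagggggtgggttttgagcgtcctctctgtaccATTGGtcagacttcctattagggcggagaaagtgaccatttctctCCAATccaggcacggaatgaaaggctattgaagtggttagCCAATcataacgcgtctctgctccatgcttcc
Fanca: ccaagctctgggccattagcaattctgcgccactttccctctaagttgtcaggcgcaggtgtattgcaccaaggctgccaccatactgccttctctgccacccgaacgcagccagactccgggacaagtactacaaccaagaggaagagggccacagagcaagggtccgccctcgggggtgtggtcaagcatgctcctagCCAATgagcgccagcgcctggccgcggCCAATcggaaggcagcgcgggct
Polq: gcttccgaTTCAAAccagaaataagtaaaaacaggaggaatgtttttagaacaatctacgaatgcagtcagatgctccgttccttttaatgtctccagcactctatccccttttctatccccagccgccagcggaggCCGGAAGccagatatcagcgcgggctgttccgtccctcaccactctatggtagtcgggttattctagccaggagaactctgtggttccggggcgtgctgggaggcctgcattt
Rad17: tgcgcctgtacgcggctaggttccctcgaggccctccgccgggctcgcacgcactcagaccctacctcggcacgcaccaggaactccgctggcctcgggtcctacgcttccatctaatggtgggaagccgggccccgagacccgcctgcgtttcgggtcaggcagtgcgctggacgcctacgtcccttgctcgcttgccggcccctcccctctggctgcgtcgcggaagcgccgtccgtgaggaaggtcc
Pold3: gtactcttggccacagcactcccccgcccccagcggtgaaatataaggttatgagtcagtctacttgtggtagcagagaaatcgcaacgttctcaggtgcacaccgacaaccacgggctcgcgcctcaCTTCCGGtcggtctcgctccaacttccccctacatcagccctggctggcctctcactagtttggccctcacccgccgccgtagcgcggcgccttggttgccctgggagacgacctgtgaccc
The peaks covered all 250 bases of the Mcm3, Fanca, Rad17 and Pold3 runs, 218 bases of the Polq run and 147 bases of the Rad18 run. Mcm3 held 3 CCAAT matches and Fanca 2. The Rad18 and Rad17 runs held none of the 8 motifs searched, which says only that those letters are not in these windows.

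The forms of the E2F letters searched were TTTGGCGC, TTTCCCGC and TTTCGCGC. They lay in the 300-base promoter windows (250 bases before to 50 after a RefSeq start) of 21 of the 68 genes that the promoter table holds. The next runs show 1 match per gene for 8 of these genes, the match nearest to the start. These 8 are origin, helicase, clamp loader and replicative polymerase genes. They were chosen after the matches were seen. Other genes of these roles held no match: Orc2, Orc4, Orc5, Orc6, Mcm2, Mcm10, Rfc1, Rfc4, Rfc5, Pola2, Pold2, Pold4 and Pole3. Each run is 30 bases of GRCm38.p6, printed on the strand that reads the motif, which is in capitals. The places are Orc1 chr4:108579416-108579445, minus strand, Orc3 chr4:34614965-34614994, minus strand, Mcm3 chr1:20820275-20820304, plus strand, Mcm5 chr8:75109349-75109378, minus strand, Mcm6 chr1:128359734-128359763, minus strand, Mcm7 chr5:138171849-138171878, minus strand, Rfc3 chr5:151651190-151651219, plus strand and Pold3 chr7:100121467-100121496, minus strand.
Orc1: aggagaaaactTTTCGCGCcactaaccgaa
Orc3: ccatgcctcccTTTCCCGCacgccccgcct
Mcm3: acttcccaagtTTTCCCGCcacggaagttt
Mcm5: aggctggacgtTTTGGCGCgaaagttcttg
Mcm6: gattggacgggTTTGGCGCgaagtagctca
Mcm7: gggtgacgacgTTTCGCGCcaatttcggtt
Rfc3: gacagtagagtTTTCCCGCgagcgcgaaag
Pold3: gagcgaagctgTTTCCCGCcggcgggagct
Of the 30-base runs around the 29 distinct E2F matches in these genes, 23 lay wholly inside the gene's peak region. A run can cross the edge of a region that holds its match, as for Brca2. A gene-end peak in at least 1 library was seen for 19 of the 21 genes. The match shown for Mcm7 lay outside its region, and that of Orc1 lay in a peak inside the gene, chr4:108579011-108579755.

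Peaks at replication and repair genes were called in most of these genes in every WT library and in 1 Homo library, and in fewer in the other 5 libraries. The lists held a gene-end peak for 66, 63, 55 and 60 of the 87 genes in WT 1 to WT 4, for 42, 35 and 14 in Het 1 to Het 3, and for 27, 11 and 70 in Homo 1 to Homo 3. All 3 Het counts were below all 4 WT counts. The Homo counts lay on both sides of the WT counts, with the highest of all 10 in Homo 3 and the lowest in Homo 2. The means were 61.0 ± 4.69 genes in WT (SD, n = 4), 30.3 ± 14.6 in Het (SD, n = 3) and 36.0 ± 30.5 in Homo (SD, n = 3). The Het mean was 30.7 genes below the WT mean, against a pooled SD of 9.91, and the Homo mean was 25 genes below it, against a pooled SD of 19.6. Homo exceeded Het by 5.67 genes, less than the pooled SD of 23.9. No p-value is given for these counts, since the genes were chosen with results of these data known.

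The lists as wholes moved the same way. They held 9526, 8355, 6731 and 8490 peaks in WT, 5796, 4666 and 2583 in Het, and 3863, 1748 and 9587 in Homo. Depth, recovered from the lists as background tags per 200 bp, was 0.985 to 1.75 in WT, 0.655 to 0.738 in Het and 0.464 to 1.61 in Homo, and Homo 3 stood apart from the other Homo libraries in peaks and depth. Of 8 hepatocyte markers, 6 had a gene-end peak in any library, among them Alb and Apoa1 in 2 libraries each, and Apob, Ttr and Trf (transferrin, listed as Tf) in 3 each. The number per library was 0 to 5 in WT, 0 in every Het library and 0 to 5 in Homo, so the labelled tissue was not visible through these genes in every list. Endothelial, lymphocyte and stellate markers had no peak in any library, 1 macrophage marker (Spi1) had one in 1 library and 1 cholangiocyte marker (Epcam) in 2. In bulk tissue, fewer cells of a type and less open chromatin per cell cannot be told apart.

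Beside the other genes of the same lists, replication and repair genes had peaks more often in every library. The share with a gene-end peak was 75.9%, 72.4%, 63.2% and 69.0% in WT, 48.3%, 40.2% and 16.1% in Het, and 31.0%, 12.6% and 80.5% in Homo. For all 21631 genes it was 35.8%, 32.8%, 28.0% and 33.9% in WT, 24.1%, 19.9% and 10.5% in Het, and 15.9%, 6.79% and 37.0% in Homo. The ratio of the share in these genes to the share in all other genes was 2.16 ± 0.101 in WT (SD, n = 4), 1.86 ± 0.278 in Het and 2.002 ± 0.162 in Homo (SD, n = 3 each). It was lowest in Het 3, at 1.54, and highest in WT 3, at 2.27. The ratio ranges were 2.04 to 2.27 in WT, 1.54 to 2.03 in Het and 1.87 to 2.18 in Homo. The Het values all lay below the WT values, whereas the Homo values overlapped them. With depth or list length made equal, the Het and WT ratios overlapped, with values given below.

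**Figure D1:**
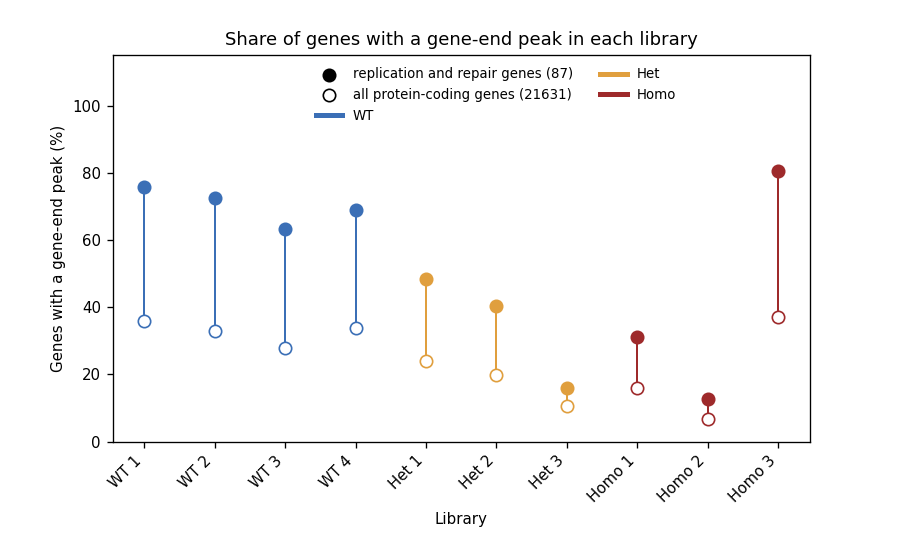
Share of genes with a gene-end peak (%, y axis) in each of the 10 libraries (x axis), for the 87 replication and repair genes (filled points) and all 21631 protein-coding genes (open points), coloured by group. The filled point is above the open point in every library, and both are highest in Homo 3 (80.5% and 37.0%) and lowest in Homo 2 (12.6% and 6.79%).

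Where a RefSeq start was known, these peaks lay mostly at the promoter. For 59 genes with a gene-end peak and an entry in the promoter table, the strongest peak lay at the 5′ end in all 59. Its summit was within 500 bp of a RefSeq start in 56, with 39 upstream and 17 downstream, and the median summit position was -39 bp (negative upstream). The summit farthest from a start was that of Fancm, an anchor protein of the Fanconi complex, at -1613 bp. Of the 74 genes, 32 (43.2%) had a peak region that also lay at the end of another protein-coding gene, against 2782 of 9218 genes (30.2%) with any gene-end peak. Mcm4 shared its region with Prkdc, Brca1 with Nbr1, Mcm8 with Trmt6, Orc3 with Rars2, and Rad17 with Ak6 and Taf9. Rad51b shared its region with Zfyve26, with the summit at -915 bp from a RefSeq start. Rad51d, which is not in the promoter table, shared its region with Rffl, with the summit 682 bp from the gene end. A peak in such a region cannot be assigned to 1 of the genes.

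**Figure D2:**
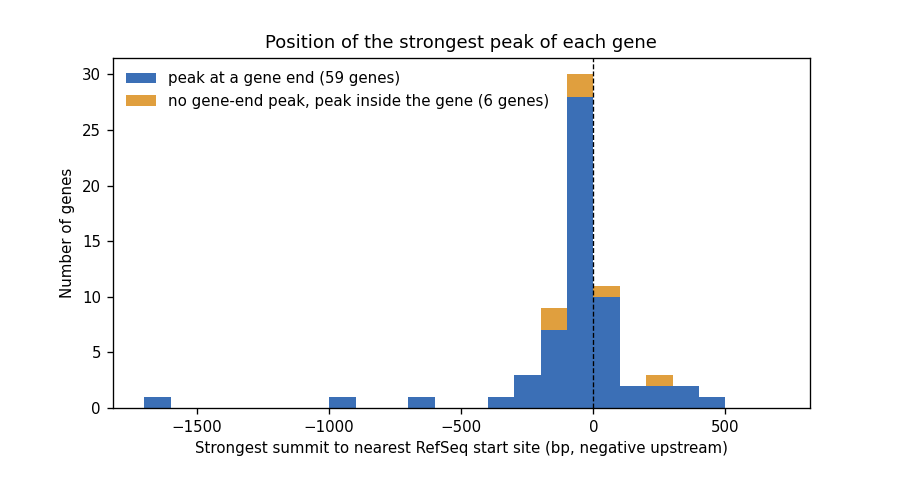
Number of genes (y axis) by the distance from the strongest peak summit to the nearest RefSeq start site (x axis, bp, negative upstream), for 59 genes with a gene-end peak (blue) and 6 with a peak inside the gene but none at its ends (orange). Most summits lie just upstream of the start, at a median of -39 bp for the 59 genes.

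Among the genes that build the origin, Orc3 and Orc6, subunits of the origin recognition complex, had a peak in all 4 WT libraries. Orc3 had one in 2 of 3 Het and 2 of 3 Homo libraries, and Orc6 in 1 of 3 and 1 of 3. Orc2 had a peak in 3 WT and 2 Homo libraries, Orc5 in 3 WT and 1 Homo library, and neither in a Het library. Orc1 and Orc4 had no gene-end peak in any library. Counting all 6 subunits, 4, 4, 4 and 2 had a peak in WT 1 to WT 4, 2, 1 and 0 in Het, and 2, 0 and 4 in Homo. The shares over all genes were 28.0% to 35.8% in WT, 10.5% to 24.1% in Het and 6.79% to 37.0% in Homo.

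The peak percentiles describe how strong each call was. The rank percentile places a peak by its −log10 p among all peaks of its own list, from 0 (weakest) to 100 (strongest). Since lists differ in length, a percentile is read within its list. Orc3 was in the upper part of each list that held it, at 78.6, 93.5, 79.4 and 83.9 in WT, 91.7 and 61.0 in Het 1 and Het 2, and 79.5 and 82.3 in Homo 1 and Homo 3. The Orc3 region (chr4:34614714-34615135) also covers the start of Rars2, an arginyl-tRNA synthetase gene.

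Of Mcm2 to Mcm7 and Mcm10, a helicase cofactor, 7, 7, 5 and 6 had a peak in WT 1 to WT 4. The Het lists held 4, 3 and 0 of the 7, and the Homo lists 2, 0 and 7, beside shares over all genes of 28.0% to 35.8% in WT, 10.5% to 24.1% in Het and 6.79% to 37.0% in Homo. Mcm2 and Mcm6 were the 2 not called in WT 3, and Mcm10 the 1 not called in WT 4. Mcm7 had the most libraries, with 4 WT, 2 Het and 2 Homo. Mcm6 had 3, 2 and 2, Mcm4 and Mcm5 had 4, 1 and 1, and Mcm2 had 3, 1 and 1. Mcm3 had 4, 0 and 1 and Mcm10 had 3, 0 and 1. The order of these 7 genes by number of libraries runs from 8 (Mcm7) to 4 (Mcm10), and neighbours in it differ by at most 1 library.

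Mcm3 (region chr1:20820114-20820571, over the 250 bases printed above) was in the middle of the lists that held it. Its percentile was 56.1, 45.1, 47.9 and 76.7 in WT and 48.7 in Homo 3. The authors' fold of tags over background at its summit was 6.65, 6.77, 6.40 and 8.33 in WT and 6.86 in Homo 3. It was not called in Het 1 to Het 3, Homo 1 or Homo 2. Against WT, Het gave p = 0.0286 (Fisher's exact test, two-sided), which was 0.553 after Benjamini-Hochberg adjustment over 9218 genes, and Homo gave an exact p of 0.143.

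Mcm4 had the highest percentile of these 7 genes in WT 1, 94.8, with 41.7, 60.7 and 78.4 in the other WT libraries. It was at 78.3 in Het 1 and 99.0 in Homo 3, and was not called in the other 4 libraries. Mcm4 and Prkdc, which encodes the catalytic subunit of the DNA-dependent protein kinase, start within the region chr16:15637245-15638002.

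The GINS genes differed among themselves. Gins4 had a peak in 9 libraries, missing in Het 3, and Gins2 in 9 libraries, missing in Homo 2. Gins1 had a peak in 3 WT, 1 Het and 1 Homo library, and Gins3 in WT 2 alone, at percentile 45.3. Gins2 ranked high in most lists, at 96.5, 52.3, 90.9 and 84.7 in WT, 81.6, 69.0 and 89.9 in Het, and 46.0 and 98.8 in Homo 1 and Homo 3. Its Het values lay within the range of its WT values.

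Pcna, the sliding clamp, had a peak in 4 WT, 2 Het and 2 Homo libraries. Its percentile was 69.2, 15.2, 27.6 and 82.3 in WT, 91.6 and 86.2 in Het 1 and Het 2, and 86.3 and 48.0 in Homo 1 and Homo 3. The WT values spanned most of the scale, so the higher Het values are within a wide spread. Of the 8 Pcna calls, 7 lay in a region that is also at an end of Cds2. Of the clamp loader genes, Rfc3 was called in 4 WT, 2 Het and 1 Homo library and Rfc4 in 4, 1 and 1. Rfc2 was called in 2, 1 and 1 and Rfc5 in 2, 1 and 0. Rfc1 had no gene-end peak.

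Polymerase genes gave one of the most widely called members, Pold3, a subunit of polymerase delta. Its region, chr7:100121104-100121839, was called in all 10 libraries, at 74.3, 95.2, 50.9 and 81.4 in WT, 43.0, 83.8 and 52.9 in Het, and 62.1, 48.7 and 55.1 in Homo. The 3 groups overlapped. Pold1, the catalytic subunit, and Pold2 were each called in 4 WT, 2 Het and 1 Homo library, and Pold4 in Homo 3 alone, at 12.5. Pole, the catalytic subunit of polymerase epsilon, was called in 4, 1 and 2, and the histone-fold subunits Pole3 and Pole4 in 4, 2 and 1. Pola1 and Pola2, of the priming polymerase alpha, were called in 4 and 3 libraries, and Pole2 in 3. Over the 10 replicative polymerase genes, 8, 9, 6 and 8 were called in WT, 6, 5 and 1 in Het, and 2, 1 and 10 in Homo. Beside these stand shares over all genes of 28.0% to 35.8% in WT, 10.5% to 24.1% in Het and 6.79% to 37.0% in Homo.

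Translesion polymerases copy damaged templates, and Polq encodes polymerase theta, which joins broken ends through short matches. Polq (region chr16:37011568-37012054) was called at 22.5, 56.5, 89.5 and 1.37 in WT 1 to WT 4 and at 64.5 in Homo 3. The call in WT 4 was among the weakest of its list. Polh was called in 9 libraries, Poln in 8, Polk in 7 and Polm in 6. For Polq the exact p was 0.0286 for Het against WT (two-sided Fisher, adjusted p = 0.553) and 0.143 for Homo against WT.

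Rad18, a ubiquitin ligase that marks PCNA at stalled forks, had a peak in every WT library and in no Het or Homo library. Its region is chr6:112696281-112696795, and its strongest summit lay at -34 bp from a RefSeq start. The percentile was 16.6, 64.5, 36.7 and 26.4 in WT 1 to WT 4, and the authors' fold was 5.80, 7.98, 6.5 and 6.02. In 3 of the 4 WT lists the peak was thus in the lower part of the list. The Fisher exact p was 0.0286, two-sided, for Homo against WT and for Het against WT, the smallest that 4 against 3 libraries allow. The adjusted p was 0.586 and 0.553. With all lists scaled to the depth of Homo 2, Rad18 was called in 2 of 4 WT libraries and in no other.

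The Fanconi anemia genes repair crosslinks. Fancl, the ubiquitin ligase of the pathway, was called in 4 WT, 2 Het and 2 Homo libraries, Fancf in 4, 3 and 2, Fance in 4, 1 and 2, and Fancm in 4, 1 and 1. The Fancm region also lay at an end of Fkbp3, and no library had a peak within 1000 bp of the Fancm RefSeq start. Fancb was called in 3 WT and 1 Homo library and Fancg in 2 WT and 2 Homo libraries, neither in Het. Fancd2 and Fanci, the pair that the ligase marks, were called in Homo 3 alone, at 25.6 and 8.57. Fancc had no gene-end peak. Of the 10 genes, 6, 7, 6 and 6 were called in WT, 2, 4 and 1 in Het, and 3, 2 and 9 in Homo. Of all genes, 28.0% to 35.8% were called in WT, 10.5% to 24.1% in Het and 6.79% to 37.0% in Homo.

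Fanca, a core complex subunit, was called in every WT library, in no Het library and in Homo 2 and Homo 3. Its percentile was 50.1, 17.5, 28.2 and 83.1 in WT and 66.1 and 69.2 in Homo 2 and Homo 3, in the region chr8:123318346-123318857. The call in Homo 2, the shallowest library, was in the upper part of that list. The exact p was 0.0286 for Het against WT (two-sided Fisher, adjusted p = 0.553), 0.429 for Homo against WT and 0.4 for Homo against Het.

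In homologous recombination, Brca1 was called in 9 libraries and Brca2 in 5. Brca1 was missing in Homo 2, and its region chr11:101551979-101552961 also lies at the start of Nbr1. Its percentile was 32.9, 72.0, 58.4 and 96.6 in WT, 42.3, 52.3 and 8.85 in Het, and 61.8 and 86.4 in Homo 1 and Homo 3. Brca2, a mediator of recombination, was called in 3 WT libraries, no Het library and 2 Homo libraries. Mcm8, whose product with MCM9 acts in recombination, was called in all WT, all Het and 1 Homo library, and Mcm9 in 5 libraries. Rad51b and Rad51d, recombination mediators, were called in 6 libraries each, Rad51c and Xrcc2 in 4 each and Xrcc3 in 7. Rad52 and Rad51ap1, which also act in recombination, were called in 7 each, Rad50 of the break-sensing MRN complex in 6, and the motor genes Rad54b in 5 and Rad54l in 3. Of the 16 genes of this role, 15, 13, 9 and 12 were called in WT, 9, 6 and 3 in Het, and 4, 1 and 15 in Homo. Among all genes the share called was 28.0% to 35.8% in WT, 10.5% to 24.1% in Het and 6.79% to 37.0% in Homo.

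Rad17, which loads the checkpoint clamp, was the other gene called in all 10 libraries, in the region chr13:100650736-100651604 that also covers the starts of Ak6 and Taf9. Its percentile was 81.8, 72.0, 92.7 and 81.6 in WT, 64.1, 52.6 and 60.8 in Het, and 89.3, 84.5 and 56.7 in Homo. All 3 Het values were below the 4 WT values, and the Homo values lay on both sides. Since the lists differ in length, this order shows no change. Being called in all 10 libraries, 2 of 87 genes (2.30%), was as frequent as among all genes (492 of 21631, 2.27%).

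Among the remaining repair genes, Xrcc1 and Xrcc4, scaffolds of single-strand break repair and of end joining, were called in 9 libraries each, and Xrcc5 (Ku80) in 7. Rad23b, an excision repair factor, was called in 9 libraries, at 97.2, 95.2, 90.6 and 93.9 in WT, 88.3 and 72.2 in Het 1 and Het 2, and 21.7, 48.0 and 93.2 in Homo. It was above 90 in each WT list, and since lists differ in length no order between groups is read from these values. The mismatch genes Msh3 and Msh6 and the meiotic Msh5 were called in 7 libraries each. Of the checkpoint clamp genes, Rad9b was called in 7 libraries and Rad1 in 6. Polg2, the accessory subunit of the mitochondrial polymerase, was called in 5.

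**Figure D3:**
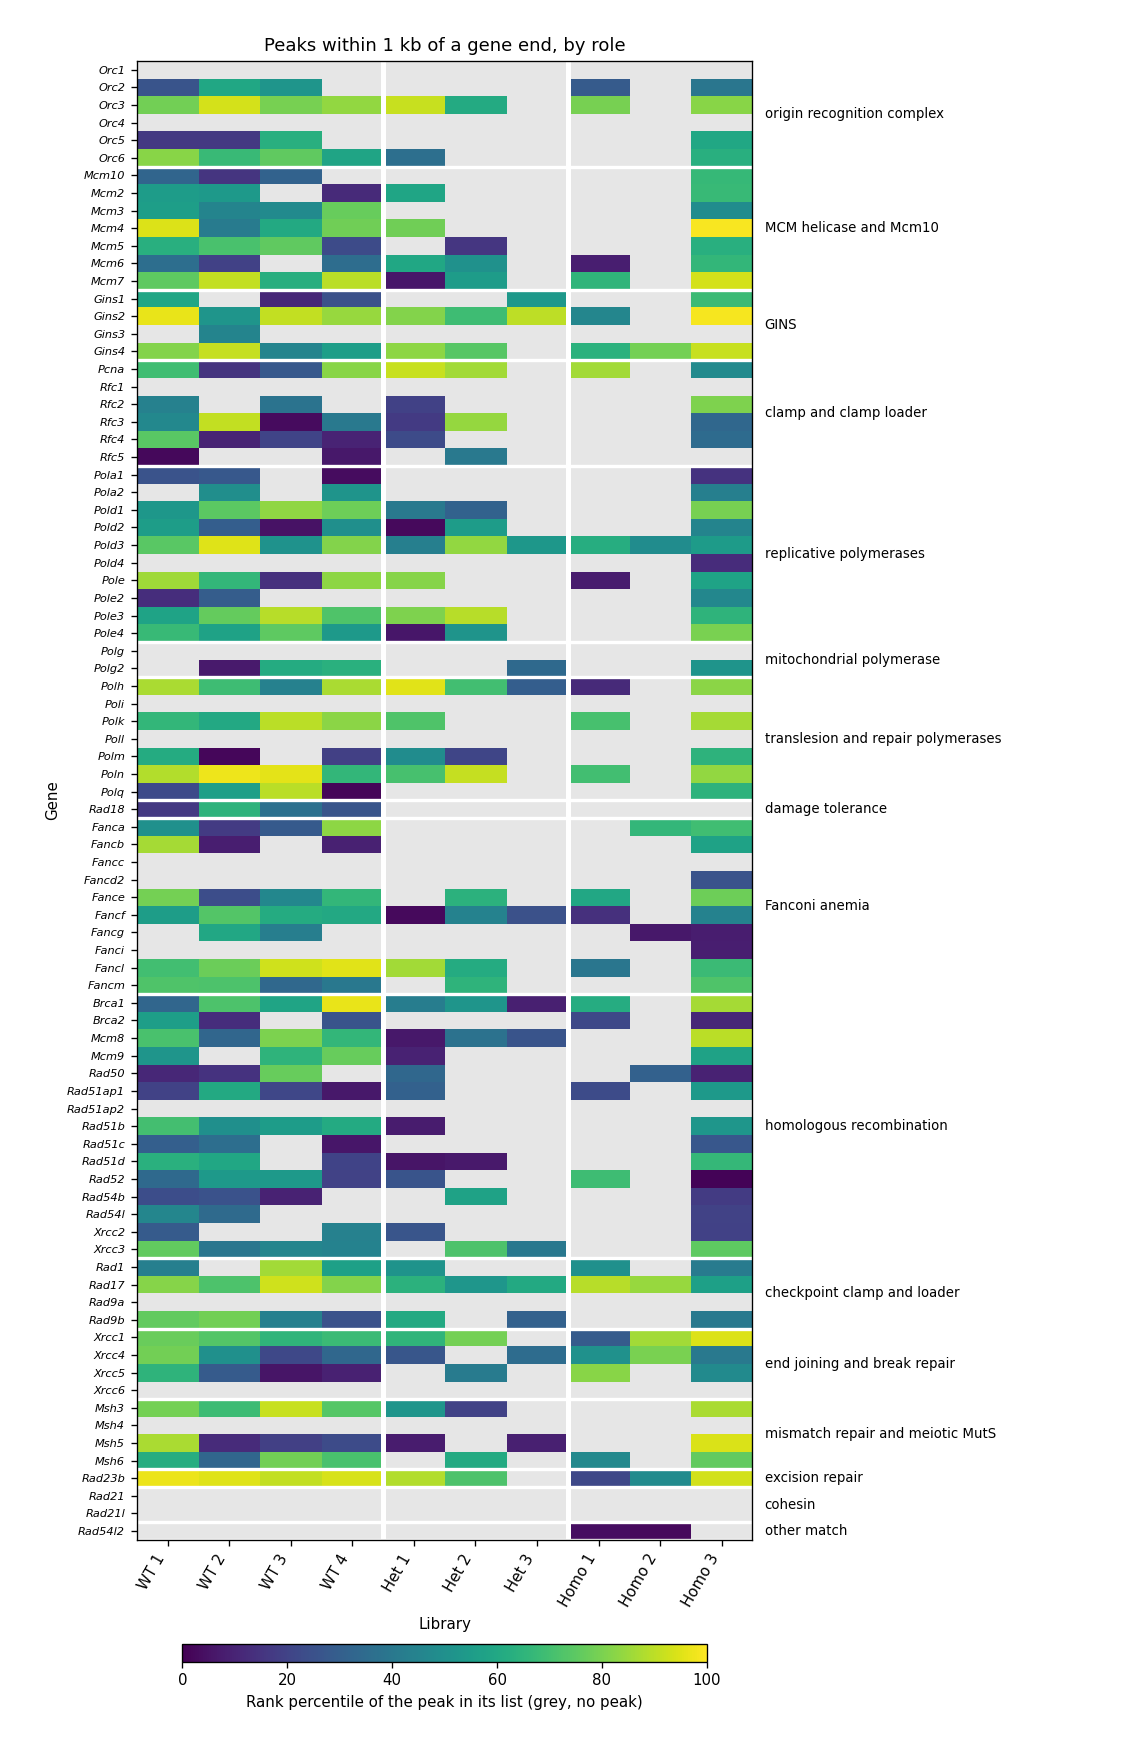
Gene-end peaks of the genes reported by name (rows, grouped by role) in the 10 libraries (columns). Colour is the rank percentile of the peak within its own list, 0 the weakest and 100 the strongest, and grey means no peak. Rows with a peak in all 10 libraries are Pold3 and Rad17. Het 3 and Homo 2 are mostly grey, with 14 and 11 of all 87 genes called.

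Of the 13 genes with no gene-end peak, 8 had a peak inside the gene. These were Orc1 and Orc4 (7 libraries each), Rfc1 (5), Polg, the mitochondrial polymerase (9), Poli (8), Fancc (9), Xrcc6, the Ku70 gene (8), and Rad21, a cohesin subunit (6). For the 6 of these that the promoter table holds, the inside peak lay near a RefSeq start. Poli and Rad21 are not in that table. The strongest summit was 2 bp downstream of a start for Orc1 and 211 bp downstream for Fancc. It was at -16 bp for Polg, -19 bp for Xrcc6, -148 bp for Rfc1 and -153 bp for Orc4, all upstream. Rad21l and Msh4, both meiotic, and Rad51ap2, Rad9a and Poll had no peak in the gene or within 1000 bp of it in any library. When a peak anywhere in the gene counted, 82 of the 87 genes were called, with 74, 72, 62 and 68 in WT, 48, 42 and 17 in Het, and 32, 14 and 78 in Homo. Of all 21631 genes, 10505 were called in this way in any library. The shares over all genes were 40.8%, 37.4%, 31.6% and 38.4% in WT, 27.5%, 22.6% and 12.2% in Het, and 18.3%, 8.03% and 42.0% in Homo.

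No replication or repair gene passed a test between groups after adjustment over all genes, a result that the design nearly fixed. The smallest exact p is 0.0286 for 4 against 3 libraries, and most of the 9218 genes would need it for an adjusted p under 0.05. For 3 against 3 libraries it is 0.1, so no gene can pass. Counts of 0 therefore do not show that the groups were alike. No gene passed Fisher's exact test on calls per library after Benjamini-Hochberg adjustment in any of the 3 comparisons: 0 of 9218 genes, or 0%, for Homo against WT, 0% for Het against WT and 0% for Homo against Het. At an unadjusted exact p under 0.05 there were 29 genes for Homo against WT (1 of them a replication or repair gene), 476 for Het against WT (4 of them) and 0 for Homo against Het, whose smallest possible p is 0.1. An exact permutation test on the rank percentile, with 0 for no peak, also gave 0 genes after adjustment. Unadjusted, it gave 254 genes (2 of them replication or repair genes), 810 (9 of them) and 0.

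By pattern, 4 of the 74 genes had a peak in every WT and no Het library (Rad18, Mcm3, Fanca and Polq), against 475 of all 9218 tested genes, or 5.15%. One gene, Rad18, had a peak in every WT and no Homo library, against 28 tested genes, or 0.304%. None had a peak in every Homo and no WT library (0.0108% of tested genes), in every Het and no WT library (0.0108%), in every Homo and no Het library (0.325%) or in every Het and no Homo library (0.0325%). In number of libraries called, 63 of the 87 genes had a lower share in Het than in WT, 0 a higher share and 24 the same. For Homo against WT these were 63, 5 and 19. Of the 74 genes with any peak, 85.1% were thus lower in Het and 85.1% lower in Homo, against 75.4% and 77.4% of all tested genes. The shares higher than in WT were 0% in Het and 6.76% in Homo, against 5.61% and 12.4% of all tested genes. Homo exceeded Het in 31 genes and was below it in 18, or 41.9% and 24.3% of the 74, against 35.2% and 24.8% of all tested genes. These shares are a description, with no test.

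The genes called in all 4 WT libraries were chosen by their WT calls, so fewer calls in the other groups are partly fixed by that choice and are set beside all genes chosen likewise. There were 43, 49.4% of the 87, against 23.4% of all genes (5067). In Het, 4 of the 43 had no peak, 13 had 1, 19 had 2 and 7 had 3, that is 9.30%, 30.2%, 44.2% and 16.3%. For all genes called in every WT library these shares were 9.37%, 23.6%, 38.9% and 28.1%. In Homo, 1, 18, 18 and 6 of the 43 had a peak in 0, 1, 2 and 3 libraries, or 2.33%, 41.9%, 41.9% and 14.0%, against 0.553%, 41.3%, 41.0% and 17.2% of all such genes. Homo 3 held 42 of the 43 (97.7%), against 98.7% of all such genes. Without Homo 3, 19 of the 43 (44.2%) had no peak in Homo, against 41.3% of all such genes. Those 19 included Mcm3, Mcm4, Mcm5, Orc6, Rfc3, Rfc4, Pold1, Pold2, Pole3, Pole4, Msh3 and Rad18.

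Fancd2, Fanci, Pold4, Fancg and Rad54l2 were the 5 genes called in a larger share of Homo than of WT libraries. Rad54l2, a Rad54-like helicase gene matched by its symbol, was called in Homo 1 and Homo 2 and in no other library, at percentiles 3.81 and 2.46, with a fold of 4.95 and 4.78 in the region chr9:106788975-106789230. Both calls were among the weakest of their lists, and the gene was not called in Homo 3.

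Depth and list length moved with the groups, so the counts were repeated with depth scaled and, separately, with list length made equal. Depth here is the background recovered from the lists, not checked against read totals, and the scaled lists still held 1748 to 6740 peaks. With every list scaled to the depth of Homo 2, 41, 51, 49 and 38 of the genes were called in WT, 42, 35 and 12 in Het, and 25, 11 and 54 in Homo. The Het and WT counts then overlapped. The means were 44.8 ± 6.24 in WT (SD, n = 4), 29.7 ± 15.7 in Het and 30 ± 21.9 in Homo (SD, n = 3 each). In the same scaled lists, 24.0% ± 2.56 of all genes were called in WT, 17.7% ± 7.22 in Het and 15.3% ± 9.57 in Homo. No replication or repair gene then had a peak in every WT and no Het library, a pattern met by 123 of 8165 genes (1.51%). Among the 1748 strongest peaks of each list, 10, 7, 18 and 13 genes were called in WT, 12, 13 and 8 in Het, and 12, 11 and 14 in Homo. These counts overlapped in all 3 groups, with means of 12 ± 4.69 in WT (SD, n = 4), 11 ± 2.65 in Het and 12.3 ± 1.53 in Homo (SD, n = 3 each). As shares of the 87 genes they ran from 8.05% (WT 2) to 20.7% (WT 3), beside means over all genes of 7.39% in WT, 7.13% in Het and 7.17% in Homo. In WT 2 the share was close to the 7.21% of all genes.

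The order of the ratio to other genes did not hold on these lists. At equal depth the ratio was 2.23, 2.15, 2.35 and 1.90 in WT, 2.04, 2.06 and 1.42 in Het, and 2.14, 1.87 and 2.43 in Homo. At equal list length it was 1.54, 1.12, 2.79 and 2.03 in WT, 1.95, 2.04 and 1.33 in Het, and 2.03, 1.87 and 2.05 in Homo. The Het and WT values overlapped in both.

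**Figure D4:**
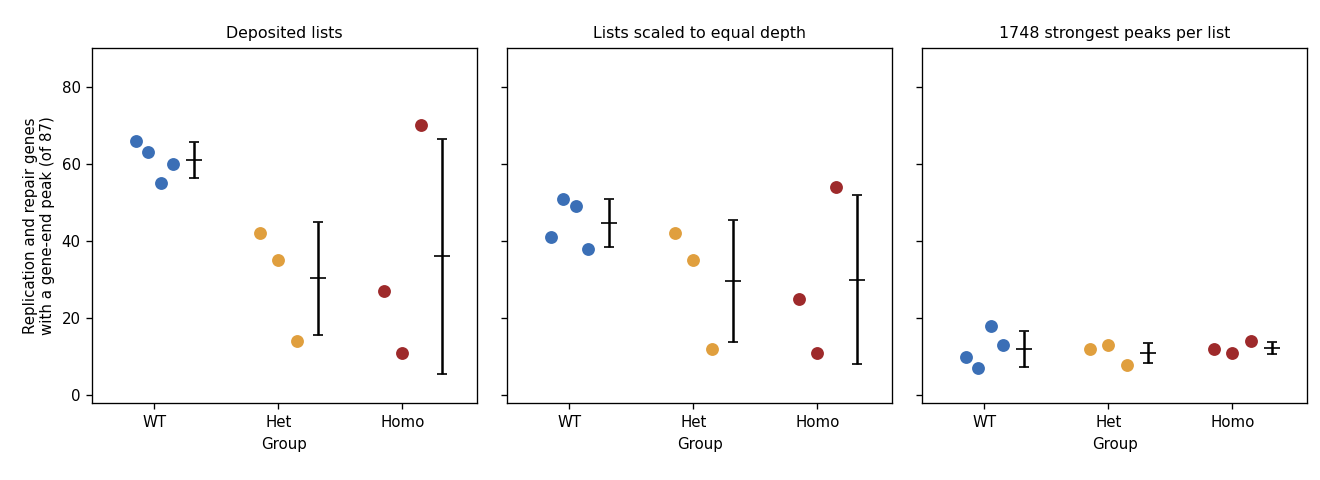
Number of the 87 genes with a gene-end peak (y axis) per library (points) by group (x axis), with the group mean and SD beside the points, in the deposited lists (left), in lists scaled to equal depth (middle) and among the 1748 strongest peaks per list (right). The Het and WT points are apart in the left panel and overlap in the other panels.

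The genes called in short lists were mostly among those called in long ones. This overlap was not counted for all genes, so it is not read as particular to these genes. For comparison, Homo 3 held 98.7% of all genes called in every WT library. All 42 genes of Het 1 and all 14 of Het 3 were called in Homo 3, which held 70, so they were 60% and 20% of the Homo 3 genes. Homo 3 also held 34 of the 35 genes of Het 2, 26 of the 27 of Homo 1 and 10 of the 11 of Homo 2. The 2 shortest lists shared 4 genes, 28.6% of the 14 in Het 3 and 36.4% of the 11 in Homo 2. In strength, the median percentile of the called genes was 56.8 ± 4.06 in WT (SD, n = 4), 44.2 ± 10.5 in Het and 54.2 ± 5.61 in Homo (SD, n = 3 each). For all gene-end peaks the values were 54.3 ± 1.48, 49.5 ± 1.59 and 50.1 ± 6.09. The lowest median was that of the 14 genes called in Het 3, at 34.6.

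Other genes of replication and repair, 78 named in a list by pathway and not matched by the rule, were counted in the same way. Of these, 71 had a gene-end peak in any library, with 64, 65, 53 and 65 in WT, 45, 40 and 22 in Het, and 27, 15 and 68 in Homo. A peak in every WT library was seen for 47, and 5 of the 47 (10.6%) had none in Het. These were Cdc45, a helicase subunit, Recql4, Chaf1b of the histone chaperone CAF-1, Rrm1 of ribonucleotide reductase and Pms2 of mismatch repair. None of the 47 lacked a peak in all Homo libraries. A peak in all 10 libraries was seen for 6, among them Wdhd1, Rpa1, Top1, Dut and Ercc4, or 7.69% of the 78, against 2.27% of all genes. After adjustment, 0 of the 78 passed the Fisher test in any comparison, and at an unadjusted exact p under 0.05 there were 5 for Het against WT and 0 for the others.

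The promoters of these genes were compared with all promoters in the table as letters. The E2F forms lay in 23 of 80 windows of the 68 genes (28.8%), against 2.43% of 21045 windows of all protein-coding genes. CCGGAAG (ETS) lay in 31.2% against 11.7%, CCAAT (NF-Y) in 56.2% against 38.5%, GCGCATGC (part of the NRF1 site) in 7.5% against 3.54% and TGACGTCA (CRE) in 5% against 2.26%. AAGATGGC (part of the YY1 site) lay in 3.75% against 3.07%. CACGTG, the E-box letters that MYC and MAX bind, lay in 6.25% against 7.91%, and TTTGAA (CHR) in 10% against 15.6%. Both strands were searched, and matches may overlap, as the TTTCGCGC and TTTGGCGC matches of Mcm5 do. The windows also differed in composition, with a median of 24 CpG and 60.8% GC against 13 CpG and 56.7% GC, and the part of composition in these shares was not tested.

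Within the gene set, the E2F letters lay in 21.4% of 14 windows of genes called in 0 to 2 libraries, 25.0% of 32 windows for 3 to 6 libraries and 35.3% of 34 windows for 7 to 10 libraries. The median number of CpG was 21, 21 and 25 in these windows. Libraries were counted here by gene-end peaks. The group of 0 to 2 libraries thus holds Orc1, Xrcc6, Polg, Fancc, Orc4 and Rfc1, whose peak lay near a start inside the gene. Of these, Orc1 and Xrcc6 carry the E2F letters. The rise in share is therefore not read as a link between these letters and being called. The number of windows is small and windows of 1 gene can overlap, so the 3 shares are given as a description.

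**Figure D5:**
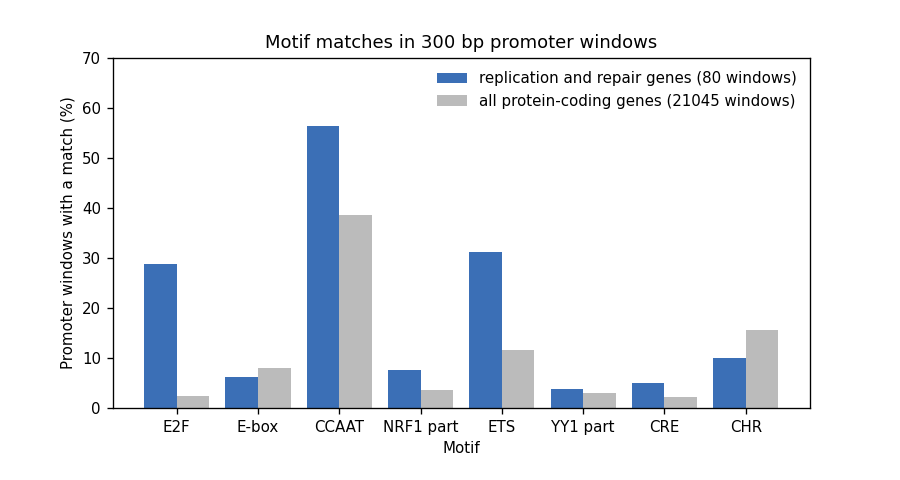
Share of 300-base promoter windows with at least 1 match on either strand (%, y axis) for each motif (x axis), in 80 windows of replication and repair genes (blue) and 21045 windows of all protein-coding genes (grey). The share is 28.8% against 2.43% for the E2F forms and 6.25% against 7.91% for the E-box.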

How the data were processed

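ATAC-seq was made from 10 liver tumour libraries (4 WT, 3 Het and 3 Homo, grouped by sample title). The submitters' processing notes name Bowtie2, MACS2, deepTools and the build mm10, without versions. Calling settings, read filters, any tag shift and read totals were not given in the sources used here. The authors deposited 1 peak list per library, so replicates were compared by presence of a peak. Each deposited row gives a score, a fold (a ratio of tags to background at the summit), a −log10 p and a −log10 q, and the distance of the summit from the peak's start. The smallest −log10 p of a list lay between 5.00 and 5.63. All are the authors' values and served here to rank, filter or scale peaks within a list. Precision is limited by 3 or 4 libraries per group.

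Peaks on autosomes and X were joined by an overlap of at least 1 bp to windows reaching 1000 bp to both sides of each gene end in the RefSeq table of GRCm38.p6. Of the 87 genes, 68 are in the RefSeq promoter table, and the other 19 have no sequence here. Depth was the smallest background, in tags per 200 bp, shared by at least 1% of rows, from whole-number pileups that return the deposited fold and −log10 p within 0.001. About 99.9% of rows of each list gave such a pileup. Equal-depth lists multiplied pileup and background by the ratio of depths and kept −log10 p of at least 5. This fixed scaling replaced a random draw, and was chosen after seeing the data. So were 2 other settings: peaks anywhere in the gene, and peaks within 1000 bp of a RefSeq start.

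Each gene was tested by a two-sided Fisher's exact test over libraries, with Benjamini-Hochberg adjustment over 9218 genes with a peak in any library. An exact permutation test on rank percentile was the alternative, with 35 splits for 4 against 3 and 20 for 3 against 3. Other alternatives were windows of 500 and 2500 bp, the summit in the window, a −log10 q of at least 5, all genes tested, equal list lengths, a replicate block and leaving out each library. The depth recovery and the Fisher test were run on simulated data with known answers, and the permutation test was not. The Fisher check used genes set as present in all of 1 group and none of the other. It shows only that the p-value was computed correctly. Genes named with values were those present in every library of 1 group and in none of another, those in all 10, in 1 or 2 or in no libraries, and the MCM, ORC, GINS, RFC, Pcna, Brca and Fanconi genes. A few genes of the set and of the lists are counted in the totals but not reported here by name. Other genes, and the E2F stretches, were named after their values were seen. The genes and lists were chosen with earlier results of these data known. Python 3.11.15, numpy 2.4.6, pandas 2.3.3, scipy 1.17.1, statsmodels 0.14.6 and matplotlib 3.10.9 were used.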

Additional observations from a re-analysis of the deposited data

How the results depend on the processing

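Over 12 results, 122 values under other settings were counted as unmoved and 19 as moved, with a wide margin for the differences in counts. Values counted as unmoved include Homo minus Het differences of -11.3 and -2.5 (5.67 as reported). They also include Homo minus WT differences of -42 and -12.5 (-25 as reported). The sign of a difference in counts, none of which was tested, changed in 3 of all values under other settings, given below. The count of genes passing after adjustment was 0 with the permutation test and with all genes tested, which the smallest possible p made nearly unavoidable. With the 1748 strongest peaks per list, the Homo minus WT difference changed sign, to 0.333 genes, and the Het minus WT difference was -1. At equal depth the Het minus WT difference was -15.1. The number of genes in every WT and no Homo library (1 as reported) was 2 with the summit in the window (Rad18 and Rad52), and 0 at equal list length and at equal depth. The number in every WT and no Het library (4 as reported) was 0 in both of those. With a window of 2500 bp, 1 gene (Rad54l2) was in every Homo and no Het library.

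Leaving out 1 library gave 1 to 19 genes in every WT and no Homo library, with 19 when Homo 3 was left out, and 4 to 12 in every WT and no Het library. The latter were 12 without Het 1, 9 without Het 2, 8 without WT 3 and 7 without WT 4. The ranges were 0 to 1 for every Homo and no WT library (Rad54l2 without Homo 3), 0 to 2 for every Homo and no Het library (Fanca and Fancg without Homo 1, Brca2 and Orc2 without Homo 2, Rad54l2 without Homo 3), and 0 to 1 for every Het and no Homo library (Mcm8 without Homo 3). The Homo minus WT difference was -42 genes without Homo 3 and -12.5 without Homo 2, and the Homo minus Het difference changed sign, to -11.3 without Homo 3 and -2.5 without Het 3. Fewer libraries make a pattern over every library easier to meet, and the cause of the other changes was not tested.

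A replicate block, as the mean of differences between libraries of the same number, gave -25.3 for Homo minus WT, -31.0 for Het minus WT and 5.67 for Homo minus Het. The labels share only numbers: same-numbered libraries correlated between -0.255 and 0.0629 in their deviations, so the libraries are not treated as paired. A missing peak means no call in that list: levels under the calling threshold are not in the lists, and no read counts were analysed here.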
